A study of Mus musculus with 44 samples.

Results

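The genes described here are 10 genes commonly used to read the state of astrocytes, 5 of them homeostatic (Aqp4, Aldh1l1, Slc1a2, Slc1a3 and Gja1) and 5 linked to reactive astrocytes (Gfap, Vim, Serpina3n, Osmr and Cd44). They were taken by gene symbol from 55487 mouse gene entries in each of the study's count tables, and all 10 were found in both tables and passed the filter on low counts in both. In the study, viruses brought the nuclear receptor RXRa (retinoid X receptor alpha) or only a fluorescent protein into the mouse nucleus accumbens. RNA came from pieces of tissue (bulk) and from sorted nuclei labelled D1 or D2, which in the striatum stand for spiny neurons with Drd1 or Drd2, the genes of dopamine receptors.

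Astrocytes take up synaptic glutamate, buffer potassium and water, and form networks through gap junctions. After injury, infection or inflammation they become reactive, a state marked by more intermediate filament protein, secreted acute-phase proteins and cytokine receptors. Much of that response runs from cytokines of the interleukin 6 family through a shared receptor subunit, gp130, to the transcription factor STAT3. RXRa pairs with other nuclear receptors or with itself on repeats of a short half-site.

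In bulk, males received the herpes simplex virus vector HSV-GFP (4 libraries) or HSV-RXRa-GFP (4 libraries). Among the sorted libraries, controls had received AAV9-CAG-DIO-EGFP, an adeno-associated virus vector whose insert Cre recombinase switches on, and the others AAV9-CAG-DIO-EGFP-P2A-RXRa. The control and RXRa groups held 5 and 4 libraries in D1 females, 5 and 4 in D1 males, 4 and 4 in D2 females, and 5 and 4 in D2 males. The labels do not give the strain, age, Cre source, interval after infusion or the number of animals behind a library. Every group therefore carried a virus and a fluorescent protein, and no group without infusion was part of the comparisons.

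Of the 10 genes, 9 had a window around the transcription start in the RefSeq table of the assembly GRCm38.p6, and Aqp4 did not. The 250 bases before the start are shown for the 3 genes in which a searched motif lay wholly upstream. Whether these motifs bear on the levels of the genes was not tested. Capitals mark the nuclear receptor half-site AGGTCA in Gfap and Aldh1l1, where it lies on the opposite strand and reads TGACCT, and TTCNNNGAA, the core of STAT sites, in Slc1a3. Each sequence is on the gene's own strand, 5′ to 3′, at chr11:102897201-102897450 (minus strand) for Gfap, chr6:90550543-90550792 (plus strand) for Aldh1l1 and chr15:8710808-8711057 (minus strand) for Slc1a3.
Gfap: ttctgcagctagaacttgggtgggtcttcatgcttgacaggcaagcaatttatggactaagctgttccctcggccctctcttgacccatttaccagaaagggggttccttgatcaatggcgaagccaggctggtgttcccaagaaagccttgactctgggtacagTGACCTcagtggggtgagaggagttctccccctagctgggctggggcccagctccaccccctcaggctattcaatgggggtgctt
Aldh1l1: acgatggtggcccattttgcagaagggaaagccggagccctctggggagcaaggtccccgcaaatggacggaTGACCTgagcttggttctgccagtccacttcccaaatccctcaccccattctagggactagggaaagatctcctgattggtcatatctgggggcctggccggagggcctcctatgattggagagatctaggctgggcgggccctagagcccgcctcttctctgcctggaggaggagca
Slc1a3: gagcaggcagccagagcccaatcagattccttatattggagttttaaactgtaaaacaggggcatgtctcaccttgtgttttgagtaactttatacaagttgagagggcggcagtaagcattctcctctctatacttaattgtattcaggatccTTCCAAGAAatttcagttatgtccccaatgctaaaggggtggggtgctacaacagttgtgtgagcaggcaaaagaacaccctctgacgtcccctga
The half-site began at position -85 in Gfap and -178 in Aldh1l1, counted from the start. In Slc1a2 a half-site began at 44, past the start. AGGTCA occurred in 3 of the 9 windows of 250 bases before to 50 after the start, and in 16.3% of the 32851 windows in the table. TTCNNNGAA, which reads alike on both strands, occurred in 2 of 9, at -96 in Slc1a3 and at -2 across the start of Gfap, and in 8.30% of all windows. Direct repeats of AGGTCA with 1 base between them (AGGTCANAGGTCA, 0.0396% of windows), with 4 (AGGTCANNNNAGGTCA, 0.0152%) or with 5 (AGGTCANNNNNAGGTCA, 0.00913%) were not found in these 9 windows. The windows of Gfap, Aldh1l1, Slc1a2, Vim and Osmr lie inside the longer spans that GENCODE M21 gives these genes. Motifs found in them, among them the half-site of Slc1a2, need not lie near the outermost start of the gene.

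Total counts ranged from 21567565 to 29167142 in the 8 bulk libraries and from 12211655 to 27757463 in the 35 sorted libraries with a group. The vector-encoded RXRa sequence had 0 counts in the 4 bulk GFP libraries, which allows up to 0.106 to 0.110 CPM (counts scaled to a total of 1000000), and 567 to 914 counts in the 4 bulk RXRa libraries. It had 0 to 17 counts in the 19 sorted EGFP libraries and 1216 to 13017 in the 16 sorted RXRa libraries. These floors cover counting error only, whereas the intervals of fold changes below include the spread between libraries. Levels below are CPM of the TMM-scaled library size, and fold changes are log2 RXRa against control. Called means an adjusted p under 0.05 in edgeR's quasi-likelihood test, with the Benjamini-Hochberg adjustment over all genes tested. Nothing in the labels says that libraries of a group came from separate animals, so p-values measure the spread between these libraries.

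In bulk tissue the RXRa group had more Aqp4 transcript, the water channel of astrocyte endfeet, and Aqp4 was the only one of the 10 genes called. The 5 reactive genes all had a positive log2 fold change, from 0.32 in Gfap to 0.74 in Cd44, but none was called. By edgeR 3 of these 5 had an unadjusted p under 0.05, and DESeq2 and limma voom also called 0 of 5. The count of 1 of 10 stood beside 3.7% of all 18579 genes tested, with 3.01% called higher and 0.689% called lower. An unadjusted p under 0.05 was found for 5 of the 10 genes, beside 21.5% of all genes, and a positive log2 fold change for 7 of 10, beside 46.5%. The median log2 fold change of the 10 genes was 0.36 and that of all genes tested was -0.015. In bulk, more astrocytes and more RNA per astrocyte cannot be told apart.

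Aqp4 (ENSMUSG00000024411, chromosome 18) had 219.8, 194.3, 166.1 and 184.2 CPM in GFP libraries 1 to 4, and 212.2, 305.1, 302.2 and 314.6 CPM in RXRa libraries 1 to 4. RXRa 2, 3 and 4 lay above every GFP library, whereas RXRa 1 lay among them. The group means were 191.1 ± 22.4 and 283.5 ± 47.8 CPM (SD, n = 4 each), and the log2 fold change was 0.57 (SE 0.13, edgeR adjusted p = 0.0478, and 0.0554 by limma voom, which did not call it). The call held in 2 of the 8 fits that left out 1 library, those without GFP 1 (adjusted p 0.0451) and without RXRa 1 (0.00513), both by edgeR. It was lost without GFP 2 (0.0915), GFP 3 (0.0895), GFP 4 (0.162), RXRa 2 (0.0961), RXRa 3 (0.124) or RXRa 4 (0.138).

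The glutamate transporter genes did not move with Aqp4. Slc1a2 (ENSMUSG00000005089, chromosome 2, 102658659 to 102790784), which encodes the main astrocytic transporter GLT-1, had 1709, 1685, 2235 and 2089 CPM in the GFP libraries and 1530, 1653, 1648 and 1328 CPM in the RXRa libraries. It was the only gene of the 10 whose groups did not overlap, and every RXRa library was lower. Groups that did not overlap were found for 13.2% of all genes tested. At -0.33 (SE 0.11, edgeR adjusted p = 0.145) the log2 difference was not called. Slc1a3 (ENSMUSG00000005360, chromosome 15, 8634124 to 8710764), the gene of the transporter GLAST, had 717.1 ± 80.2 CPM with GFP and 710.3 ± 94.1 CPM with RXRa (SD, n = 4 each). The 95% interval of its log2 fold change ran from -0.26 to 0.23 around -0.014, and its sign turned with library totals in place of TMM (0.025) and with 3 of the 8 libraries left out in turn.

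Gja1 and Aldh1l1 were not called either. Gja1 (ENSMUSG00000050953, chromosome 10, 56377330 to 56402513), which encodes the gap junction protein connexin 43, had 207.3 ± 19.1 CPM with GFP and 184.5 ± 21.7 CPM with RXRa (SD, n = 4 each), with a log2 difference of -0.17 (SE 0.09, edgeR adjusted p = 0.338). For Aldh1l1 (ENSMUSG00000030088, chromosome 6, 90486427 to 90600203), a folate enzyme gene widely used as an astrocyte marker, the values were 147.8, 134.0, 90.9 and 107.2 CPM with GFP and 122.6, 160.2, 140.2 and 167.9 CPM with RXRa. These groups overlapped, since GFP 1 and 2 lay above RXRa 1. The log2 fold change was 0.30 (SE 0.15, edgeR adjusted p = 0.301).

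**Figure D1:**
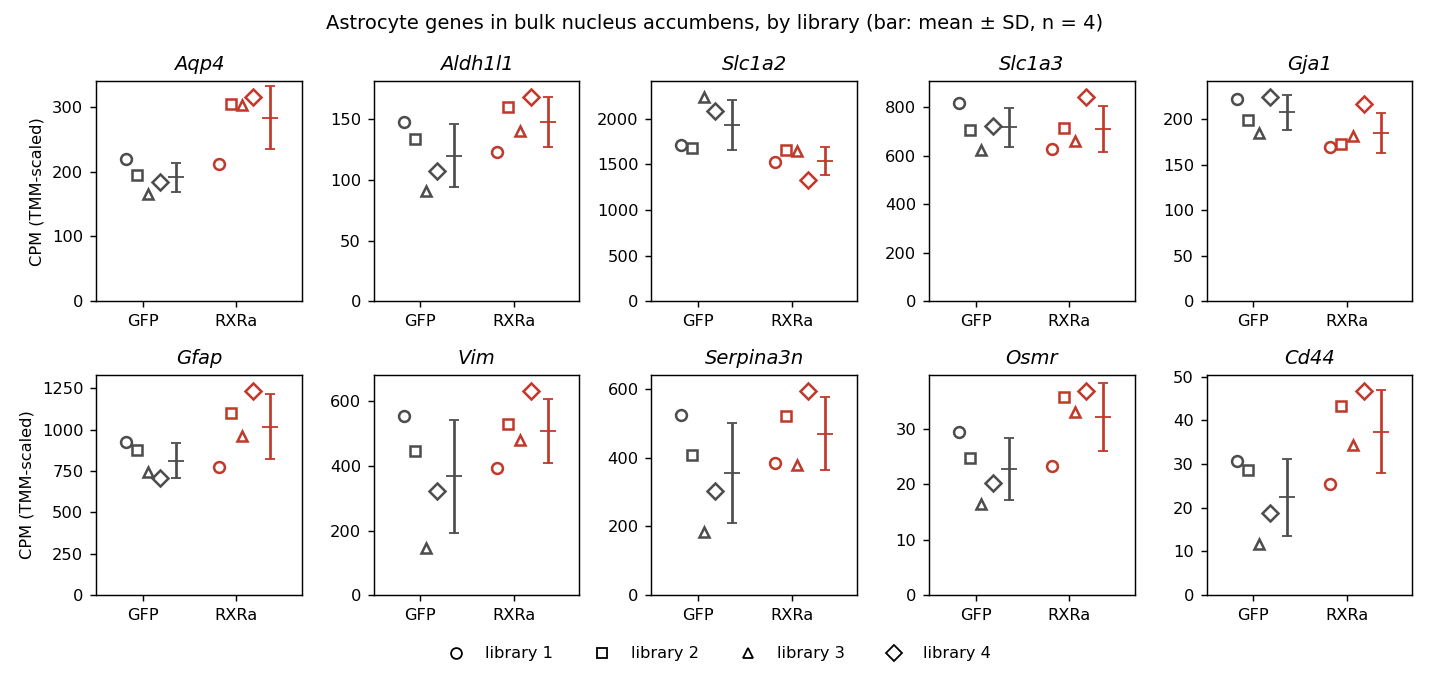
CPM of each gene (y axis, from 0) in the 4 bulk GFP libraries (grey) and the 4 bulk RXRa libraries (red). Symbols number the libraries and the bar beside them is the mean ± SD. Aqp4 in RXRa libraries 2 to 4 lies at 302.2 to 314.6 CPM, above all GFP libraries, and Slc1a2 is lower in each RXRa library.

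Among the reactive genes, the intermediate filament genes came first. Gfap (ENSMUSG00000020932, chromosome 11, 102887336 to 102900912), the classical astrocyte filament, had 925.0, 875.7, 747.4 and 705.2 CPM with GFP and 775.4, 1101, 964.9 and 1233 CPM with RXRa. RXRa 2, 3 and 4 were higher than all GFP libraries, but RXRa 1 was lower than GFP 1 and 2. The log2 fold change was 0.32 (SE 0.14, edgeR adjusted p = 0.231). Vim (ENSMUSG00000026728, chromosome 2, 13573927 to 13582826), the gene of vimentin, had 555.4, 445.6, 147.3 and 322.8 CPM with GFP and 394.3, 531.6, 480.0 and 632.0 CPM with RXRa. The GFP libraries alone spanned 147.3 to 555.4 CPM, and the log2 difference, 0.47 (SE 0.34, edgeR adjusted p = 0.456), lay within that spread.

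Serpina3n (ENSMUSG00000021091, chromosome 12, 104406729 to 104414329), which encodes a secreted acute-phase protease inhibitor, had 524.8, 408.5, 182.7 and 304.5 CPM with GFP and 385.0, 522.5, 378.4 and 594.1 CPM with RXRa, with a log2 difference of 0.40 (SE 0.29, edgeR adjusted p = 0.454). Its groups overlapped. Serpina3n belongs to a cluster of similar genes whose reads may be shared. Osmr (ENSMUSG00000022146, chromosome 15, 6813577 to 6874969) encodes the oncostatin M receptor, which signals together with gp130. It had 29.5, 24.9, 16.5 and 20.3 CPM with GFP and 23.3, 35.7, 33.1 and 36.9 CPM with RXRa (log2 fold change 0.50, SE 0.19, edgeR adjusted p = 0.177). Cd44 (ENSMUSG00000005087, chromosome 2, 102811141 to 102901665), the gene of a hyaluronan receptor, had 30.6, 28.5, 11.6 and 18.8 CPM with GFP and 25.4, 43.2, 34.4 and 46.7 CPM with RXRa (log2 fold change 0.74, SE 0.30, edgeR adjusted p = 0.190). In both genes RXRa 1 lay among the GFP libraries and the other 3 RXRa libraries lay above them.

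Most of the 10 genes varied together between libraries of a group. GFP 3 was the lowest of the 8 libraries for 7 genes and the highest for 1, Slc1a2. RXRa 4 was the highest for 8 genes and the lowest for 1, again Slc1a2. On log2(CPM + 1), GFP 3 lay at -1.16 from its group mean for Vim, -0.85 for Serpina3n and -0.80 for Cd44, while it was 0.22 above it for Slc1a2. GFP 1 lay above its group mean by 0.75 for Vim, 0.67 for Serpina3n and 0.53 for Cd44. RXRa 1 was below its group mean for all genes but Slc1a2, which sat at the mean. The summed level of the 5 reactive genes was 2065, 1783, 1105 and 1372 CPM in GFP 1 to 4 and 1604, 2234, 1891 and 2543 CPM in RXRa 1 to 4. With 1 surrogate variable in the fit, a term estimated from such shared variation, 7 of the 10 genes were called, Aqp4, Aldh1l1, Cd44, Osmr, Serpina3n and Vim higher and Slc1a2 lower. The 3.7% of all genes called above belongs to the fit without that term. The share of all genes called with it is not given here, so 7 of 10 is no result about these genes. What that term stands for was not tested.

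**Figure D2:**
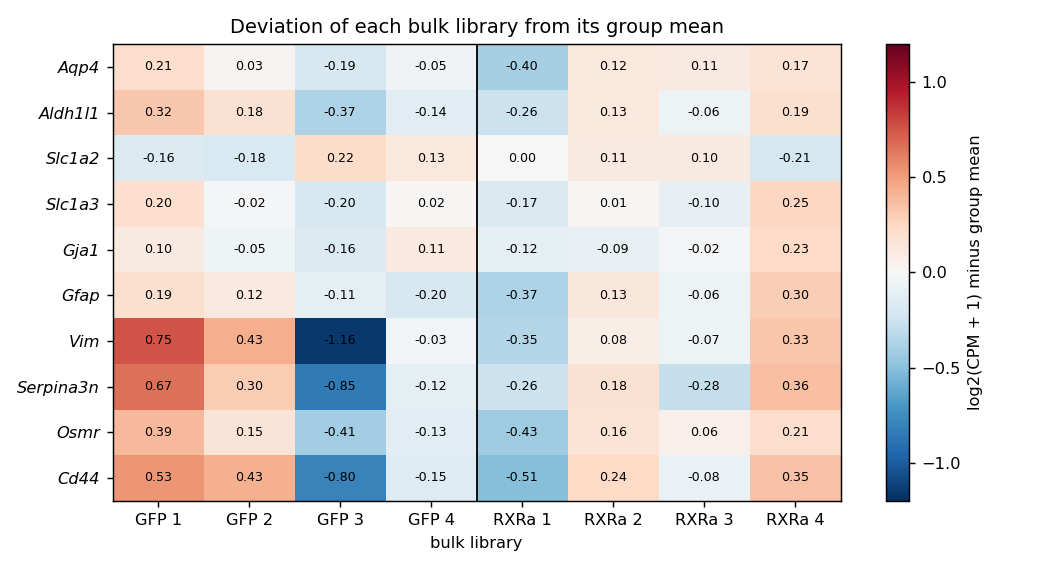
Deviation of each bulk library (columns) from its group mean on log2(CPM + 1), for each gene (rows), with red above and blue below the mean. GFP 3 is blue for 9 genes, down to -1.16 for Vim, and red for Slc1a2 (0.22).

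Genes with the most similar deviations over the 8 bulk libraries were picked by Pearson's r on log2(CPM + 1) minus the group mean, out of 16009 genes with a mean CPM of at least 1. For Aqp4 they were Lpin3 (r = 0.983), Slc44a2 (r = 0.983) and Atad5 (r = 0.971). For Gfap they were Slc14a1 (r = 0.984), Gm20257 (r = 0.982) and Nfil3 (r = 0.979). Slc14a1 encodes a urea transporter and Nfil3 a basic leucine zipper transcription factor. The r values share 8 libraries and describe likeness only.

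Levels per kb of exon set the order of the 10 genes in bulk. With GFP, Gfap had 192.8 ± 24.6 CPM per kb (SD, n = 4), followed by Serpina3n with 172.1 ± 70.7 and Slc1a2 with 146.9 ± 20.96. The ranges of these 3 overlapped, although Gfap lay above Slc1a2 within each GFP library. Slc1a3 (84.0 ± 9.39) and Vim (77.5 ± 36.9) came next and overlapped each other. Aqp4 (30.7 ± 3.60), Aldh1l1 (26.6 ± 5.68) and Gja1 (20.2 ± 1.86) followed, and Cd44 (3.30 ± 1.31) and Osmr (1.88 ± 0.466) were lowest. The GFP range of Aldh1l1 (20.1 to 32.7) overlapped those of Aqp4 (26.6 to 35.3) and Gja1 (18.0 to 21.8). The ranges of Cd44 and Osmr overlapped, although Cd44 lay above Osmr within each GFP library. The top places were thus shared by reactive and homeostatic genes, and the lowest were held by the reactive genes Cd44 and Osmr.

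Other homeostatic astrocyte genes that were called were lower, unlike Aqp4. Of 24 such genes, 3 were called, all lower, beside the 0.689% of all genes, and 4 had a positive log2 fold change, beside 46.5% of all genes, with a list median of -0.11. S100b, a calcium-binding protein gene, fell from 78.1 ± 1.92 to 64.9 ± 0.693 CPM (SD, n = 4 each), at a log2 difference of -0.27 (SE 0.04, edgeR adjusted p = 0.0133). Cldn10, a claudin gene, fell from 20.5 ± 1.94 to 14.9 ± 0.782 CPM (-0.47, SE 0.08, edgeR adjusted p = 0.0225). Mfge8, the gene of a secreted phagocytosis adaptor, fell from 217.9 ± 24.0 to 153.8 ± 19.0 CPM (-0.50, SE 0.10, edgeR adjusted p = 0.0342). Over the 8 fits without 1 library the highest edgeR adjusted p was 0.0523 for S100b, 0.0929 for Cldn10 and 0.125 for Mfge8.

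Other lists of reactive astrocyte genes gave calls in the higher direction, where 3.01% of all genes were called. Of 8 further genes common to reactive states, 1 was called, Aspg, which rose from 7.80 ± 2.03 to 16.9 ± 4.67 CPM (log2 fold change 1.11, SE 0.23, edgeR adjusted p = 0.0341). Of 11 genes of the state named A1, 3 were called, all higher: the immune genes H2-T23 (0.96, SE 0.20), Iigp1 (1.26, SE 0.26) and Srgn (0.95, SE 0.21). Of 12 genes of the state named A2, 11 were tested and 2 were called, both higher, the cytokine gene Clcf1 (1.04, SE 0.24) and the prostaglandin synthase gene Ptgs2 (0.88, SE 0.10). H2-T23 belongs to a family of similar genes and its reads may be shared. Without 1 library the highest edgeR adjusted p was 0.13 for Aspg, 0.105 for H2-T23, 0.131 for Iigp1, 0.145 for Srgn, 0.162 for Clcf1 and 0.0502 for Ptgs2. H2-T23, Iigp1, Srgn and Ptgs2 are also expressed by immune or other cells, so the lists are not specific to astrocytes in bulk tissue. Of 6 other intermediate filament and partner genes 0 were called by edgeR, DESeq2 or limma voom, and 1 had an unadjusted p under 0.05.

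Along the gp130 to STAT3 route, 14 of 15 genes were tested and 1 was called, the kinase gene Tyk2, which rose from 31.3 ± 1.22 to 40.6 ± 2.05 CPM (log2 fold change 0.37, SE 0.06, edgeR adjusted p = 0.0132, 0.0617 in the highest fit without 1 library). In all, 11 of the 14 had a positive log2 fold change, beside 46.5% of all genes, with a median of 0.35, and DESeq2 called 5. The share of all genes that DESeq2 called is not given here, so its 5 calls are no result about this list. An unadjusted p under 0.05 was found for 9 of the 14, beside 21.5% of all genes, and 1 of these 9, Ptpn11, had a negative value (-0.10, edgeR adjusted p = 0.223). Its members Osm, Stat3 and Socs3 were singled out after their values were seen. Osm, the gene of the ligand oncostatin M, had 1.01 ± 0.411 and 2.21 ± 0.457 CPM (1.12, SE 0.28, edgeR adjusted p = 0.0603). Stat3 had 158.0 ± 26.6 and 221.0 ± 22.9 CPM (0.48, SE 0.12, edgeR adjusted p = 0.0636). Socs3, the feedback inhibitor induced by STAT3, had 39.4 ± 15.4 and 65.9 ± 17.3 CPM (0.74, SE 0.28, edgeR adjusted p = 0.173).

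Markers of other cells moved in the same bulk comparison. Of all genes tested, edgeR called 3.01% higher and 0.689% lower, and 21.5% had an unadjusted p under 0.05. Of 8 T cell genes, 7 were called higher (Cd4 was not, at -0.22), and limma voom called 4. The share of all genes that limma voom called is not given here. Cd3d, a T cell receptor complex gene, rose from 0.736 ± 0.349 to 3.43 ± 1.85 CPM (2.22, SE 0.44, edgeR adjusted p = 0.0316), and Lck and Cd8a rose by 1.24 and 1.67. Left-out libraries raised the edgeR adjusted p to at most 0.118 for Cd3d, 0.101 for Cd8a and 0.0889 for Lck. The summed T cell list ran from 53.7 to 69.8 CPM with GFP and from 64.6 to 119.2 CPM with RXRa, and no gene of it was at 0 in all libraries. Cd4, the gene not called, held the largest part of that sum, with 46.1 ± 6.78 CPM under GFP and 39.6 ± 6.92 CPM under RXRa (SD, n = 4 each). Of 7 endothelial genes Ly6c1 (0.67, SE 0.10) and Abcb1a (0.32, SE 0.07) rose, and of 6 mural and fibroblast genes Dcn (0.85, SE 0.19) and Col1a1 (0.83, SE 0.19) rose, with the calls of Dcn and Col1a1 absent in limma voom. Microglial genes (0 of 13 called, 2 with an unadjusted p under 0.05), oligodendrocyte genes (0 of 8, 2) and spiny neuron genes (0 of 10, 4) gave no call by edgeR, and none by DESeq2 or limma voom. The unadjusted counts of the microglial and oligodendrocyte lists lay near the share of all genes and are no result about these lists. The oligodendrocyte and spiny neuron genes all had negative log2 fold changes, with medians of -0.28 and -0.15. Summed microglial markers ran from 1415 to 2337 CPM with GFP and from 1795 to 2532 CPM with RXRa, with GFP 3 lowest, as for most of the 10 genes. Summed oligodendrocyte markers ran from 5194 to 5721 CPM and from 3167 to 5566 CPM. The part of these cells in the values of the 10 genes was not tested.

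Before the sorted comparisons, 2 libraries need naming. The library labelled D2 male EGFP 4 had the highest level of all 35 for Aqp4 (21.7 CPM, against 7.88 to 14.7 in the 33 libraries other than it and D2 male RXRa 3), Slc1a3 (86.5 against 43.0 to 55.2), Gja1 (25.1 against 9.05 to 16.5), Gfap (9.74 against 3.5 to 7.38), Vim (12.7 against 2.89 to 8.17) and Serpina3n (12.2 against 4.32 to 8.43). Its Aldh1l1 (46.6 CPM), Osmr (42.5) and Cd44 (57.5) lay inside the ranges of those 33. D2 male RXRa 3 had the highest Slc1a2 (190.0 CPM, against 94.9 to 138.1, with 183.1 in D2 male EGFP 4) with Gja1 (23.4), Slc1a3 (66.8) and Aqp4 (15.8) also above those 33. Its Aldh1l1 went the other way, at 37.7 CPM against 41.6 to 64.3, and its Gfap (4.37), Vim (4.75) and Serpina3n (5.81) lay inside the ranges. In D2 male EGFP 4 the oligodendrocyte list was also raised, to 1.95 times the level of silent genes defined next, against 1.06 to 1.82, and the microglial (1.17) and endothelial (1.03) lists were not. The other astrocyte lists lay inside the ranges of those 33 libraries. The list of 24 other homeostatic genes was at 1.25, against 1.06 to 1.72. The list of 8 further reactive genes was at 0.668, against 0.573 to 1.35, and the A1 and A2 lists used above were at 1.20 and 1.02.

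**Figure D3:**
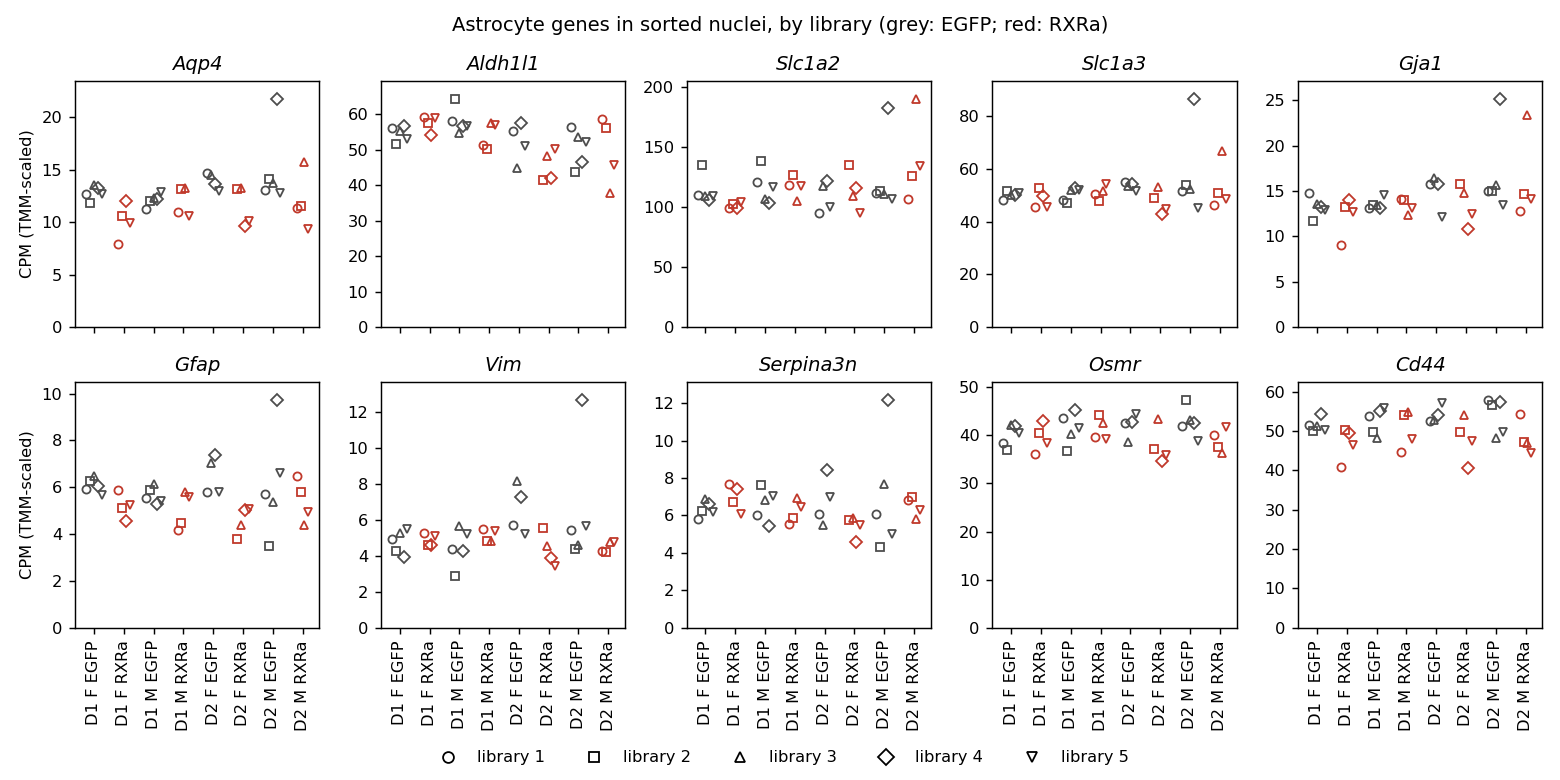
CPM of each gene (y axis, from 0) in the 35 sorted libraries, by population, sex (F, M) and vector (grey EGFP, red RXRa), with symbols numbering the libraries. D2 male EGFP 4 (grey diamond) lies above all other libraries for Aqp4, at 21.7 CPM, and for Vim, at 12.7 CPM.

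The sorted libraries were then used to check how much astrocyte RNA they held. Sorted nuclei gave counts even to genes with no count in any bulk library. The set comprised 1576 autosomal genes that code for protein and span 5 kb or more, and across these silent genes the counts scaled with the length of the gene body (slope 0.94 on the log2 scale) and little with exon length (0.10). Levels were therefore compared per kb of gene body, and a ratio of 1 means that a gene stood at the median of the silent genes in its library. Across the 35 libraries the silent-gene level lay between 0.380 and 0.565 CPM per kb.

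Most of the 10 genes sat within the range of the silent genes. Their median ratio over the 35 libraries ran from 0.843 in Gfap and 0.944 in Aldh1l1 through 1.11 in Gja1 and Vim, 1.14 in Cd44, 1.15 in Aqp4, 1.31 in Slc1a3 and 1.33 in Osmr to 1.65 in Serpina3n and 1.68 in Slc1a2. None of the 10 had a median above 2, and the 5th to 95th percentile of the silent genes themselves was 0.355 to 1.56. Serpina3n and Slc1a2 lay above that band. Gfap, among the highest genes of bulk tissue, lay above the silent level in 4 of 35 libraries, with 47 to 185 counts per library. Slc1a2, Slc1a3, Serpina3n, Osmr and Cd44 lay above it in all 35. Among 21903 protein-coding genes, Gfap lay at percentile 99.6 in bulk, ranked per kb of exon, and at percentile 15.9 in sorted nuclei, ranked per kb of gene body (medians over libraries). Slc1a2 lay at percentiles 99.1 and 74.7. The kinds of library differ in RNA selection as well as in cells.

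Markers of spiny neurons had higher ratios than the 10 genes. All 10 spiny neuron genes had a median ratio above 2, with a median of 5.84 and a range from 3.38 to 66.8 (Penk). These medians pool D1 and D2 libraries, although the list holds markers of either population, among them Drd1 and Drd2. They do not show the level of such a gene in D1 or D2 nuclei alone. The oligodendrocyte list had a median of 1.31 and the microglial list 1.20, and the 10 astrocyte genes 1.14. The 24 other homeostatic astrocyte genes had a list median of 1.26, but 6 of them had a median ratio above 2, up to 5.32 in Apoe, which is above the lowest spiny neuron gene. Apoe, Atp1b2 (3.11), Slc4a4 (2.70), Glul (2.38), Clu (2.24) and Ntsr2 (2.18) were named after their values were seen, and some of them are expressed by other cells too. With the gene's exon length in place of its body the ratio of Aldh1l1 was 7.29, of Slc1a2 5.08 and of Cd44 4.60, and the choice of length therefore sets the value for genes with long introns. Without D2 male EGFP 4 and D2 male RXRa 3, the highest ratio in a library was 2.66, in Serpina3n, and 2.55 in Slc1a2.

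**Figure D4:**
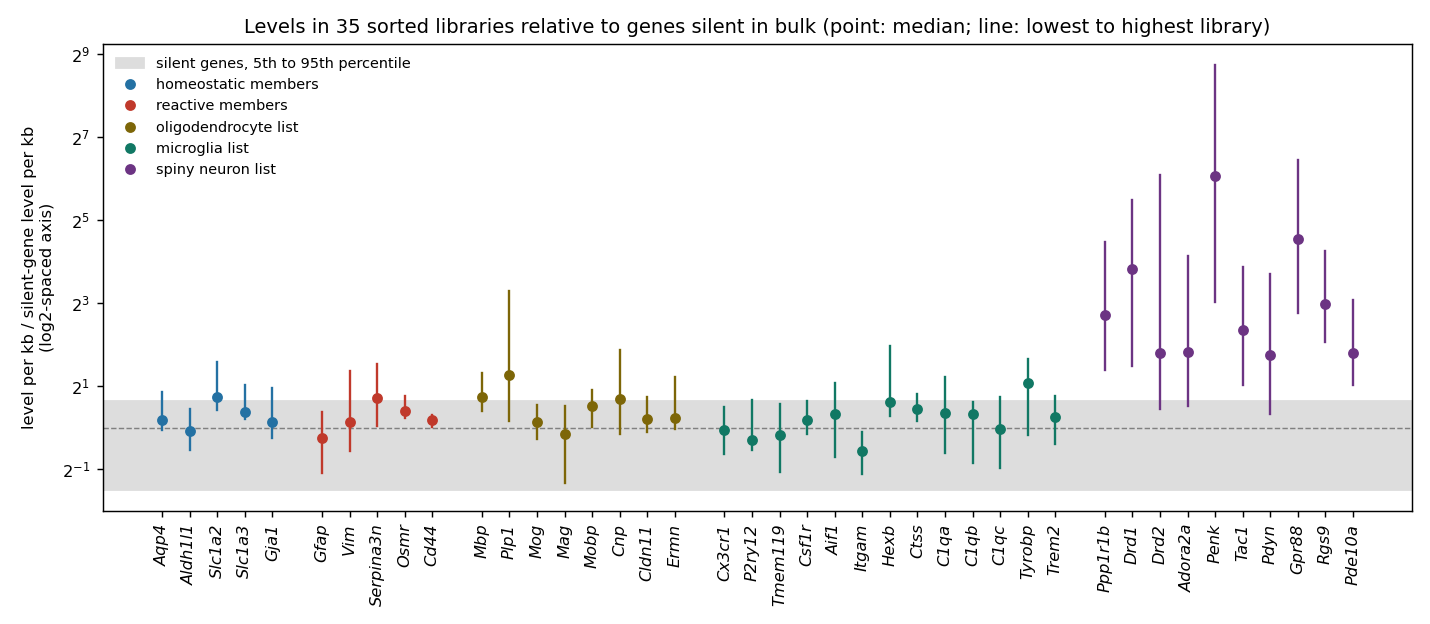
Level per kb of gene body divided by the silent-gene level (log2-spaced y axis) for the astrocyte genes and 3 marker lists (points, median of 35 libraries, with lines from the lowest to the highest library). The grey band is the 5th to 95th percentile of silent genes. The astrocyte genes lie between 0.843 and 1.68, while the spiny neuron genes start at 3.38.

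RXRa against EGFP in D1 nuclei, both sexes weighted equally, gave 0 of 10 calls by edgeR (0 with an unadjusted p under 0.05) and 0 by DESeq2 and limma voom, beside 0% of all 43902 genes called and 8.01% with an unadjusted p under 0.05. The log2 fold changes ran from -0.20 in Gfap to 0.09 in Vim. Aqp4 had 11.3, 12.5 and 13.6 CPM (lowest, median and highest) in the 10 D1 EGFP libraries and 7.88, 10.8 and 13.3 CPM in the 8 D1 RXRa libraries, at -0.17 (95% interval -0.37 to 0.02). For Gfap the values were 5.29, 5.89 and 6.49 CPM and 4.18, 5.19 and 5.87 CPM, at -0.20 (-0.42 to 0.03). Both pairs of ranges overlapped. Aldh1l1 (-0.013), Slc1a3 (-0.019), Serpina3n (0.031) and Osmr (-0.010) lay near 0, and their signs turned under other scalings or fits.

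In D2 nuclei 5 of the 10 genes were called, all lower with RXRa, beside 7.14% of all genes called lower, 14.9% called higher and 22.1% called in either direction. The same 5 had an unadjusted p under 0.05, beside 37.1% of all genes. Vim fell most. It had 4.39, 5.63 and 12.7 CPM in the 9 EGFP libraries and 3.43, 4.39 and 5.55 CPM in the 8 RXRa libraries, so that the log2 difference was -0.57 (SE 0.15, edgeR adjusted p = 0.0144). Aqp4 fell by 0.31 on the log2 scale (SE 0.10, edgeR adjusted p = 0.0294), with 12.8, 13.7 and 21.7 CPM against 9.34, 11.4 and 15.8 CPM. Gfap fell by 0.33 (SE 0.12, edgeR adjusted p = 0.0419), Cd44 by 0.17 (SE 0.06, 0.0378) and Osmr by 0.15 (SE 0.05, 0.0477), the adjusted p-values again from edgeR. The EGFP and RXRa ranges overlapped for each of these 5 genes. Mean ratios to the silent-gene level in D2, EGFP then RXRa, were 1.39 and 1.09 in Vim, 1.28 and 1.19 in Aqp4. They were 0.882 and 0.808 in Gfap, 1.13 and 1.16 in Cd44, and 1.31 and 1.37 in Osmr. By that measure Cd44 and Osmr were not lower. All these means lay within the 5th to 95th percentile of the silent genes, 0.355 to 1.56. The part of background counts in these falls was not tested.

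The other 5 were not called, at 0.11 in Slc1a2 and between -0.21 and -0.11 in Aldh1l1, Slc1a3, Gja1 and Serpina3n. With library totals in place of TMM the median of all genes moved from -0.043 to -0.20, the calls over all genes went from 6548 higher and 3135 lower to 2057 higher and 9334 lower, 7 of the 10 genes were called lower, and Slc1a2 turned to -0.061. DESeq2 called Vim, Aqp4, Gfap and Cd44, and limma voom called Vim, Aqp4, Cd44 and Osmr. The shares of all genes called by DESeq2 and by limma voom are not given here.

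The D2 calls became fewer when some single libraries were left out or the silent-gene level entered the fit. Without D2 male EGFP 4 only Vim was called (-0.36, edgeR adjusted p 0.0276), and Aqp4 was at -0.19 (0.116), Gfap at -0.20 (0.152), Cd44 at -0.13 (0.118) and Osmr at -0.12 (0.136). Without D2 female RXRa 4 none was called, nor any other gene tested, with Vim at -0.56 (edgeR adjusted p 0.0587). Without D2 male RXRa 5 only Vim was called (edgeR adjusted p 0.0456). Without D2 male RXRa 3, Vim (edgeR adjusted p 0.0264) and Aqp4 (0.0258) were called. There were 2 calls without D2 female EGFP 1, 4 or 5 or D2 male EGFP 1, and 3 without D2 female RXRa 2, D2 male EGFP 2 or D2 male RXRa 2. The silent-gene level itself was lower with RXRa in D2, by 0.21 on the log2 scale (-0.21), with 0.481 to 0.565 CPM per kb under EGFP and 0.386 to 0.537 under RXRa. In D1 that difference was -0.12. With the silent-gene level as a covariate 0 of the 10 genes were called, and no gene of all those tested was. The loss of calls was therefore not particular to these 10 genes. The edgeR adjusted p was 1 for all 5, at -0.59 in Vim, -0.33 in Gfap, -0.12 in Aqp4, -0.033 in Osmr and 0.013 in Cd44. Without the covariate Vim was at -0.57 and Gfap at -0.33, with -0.31 in Aqp4, -0.15 in Osmr and -0.17 in Cd44. With only the 4 D2 groups in the fit none was called, and Vim had an edgeR adjusted p of 0.0629.

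**Figure D5:**
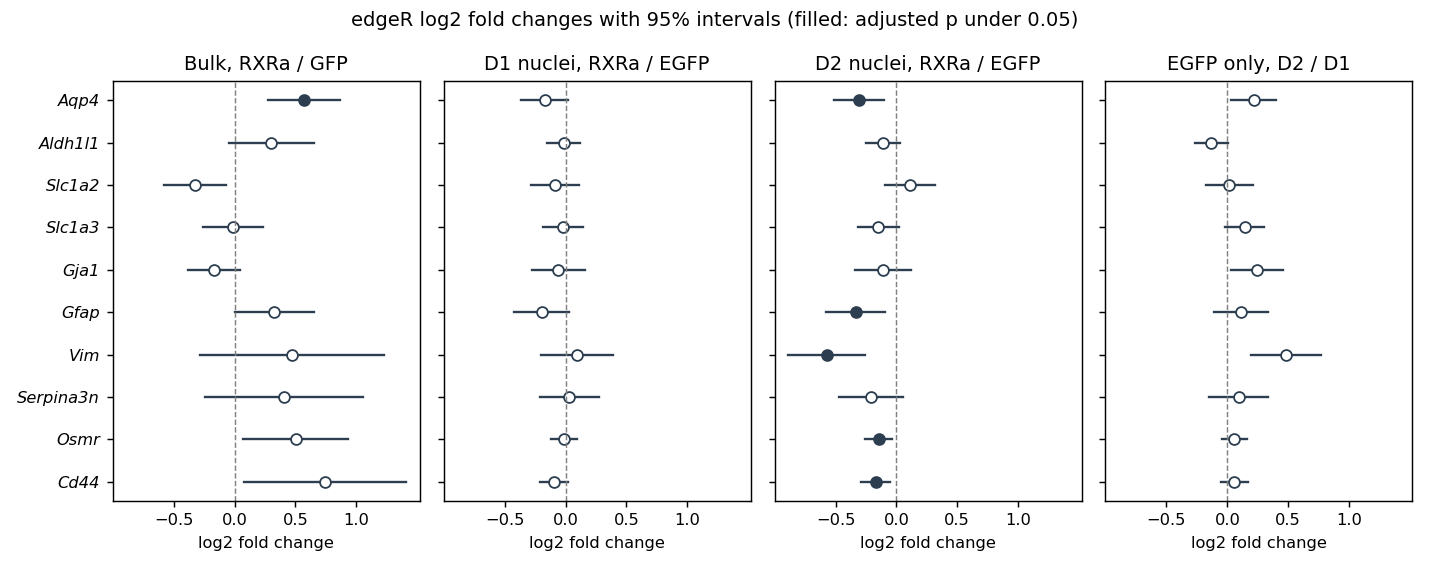
Log2 fold changes with 95% intervals (x axis) for each gene (y axis) in bulk, D1 and D2 nuclei with RXRa, and between D2 and D1 nuclei under EGFP, with filled points where the edgeR adjusted p was under 0.05. Aqp4 lies at 0.57 in bulk and at -0.31 in D2 nuclei.

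Within each sex and population 0 of the 10 genes were called by edgeR, beside 0% of genes in each. An unadjusted p under 0.05 was found for 1 gene in D1 females (6.28% of all genes), 0 in D1 males (3.02%), 3 in D2 females (25.2%) and 2 in D2 males (19.7%). The difference between the effects in D2 and D1 was tested as an interaction, and 0 of 10 genes were called by edgeR, DESeq2 or limma voom, beside 0% of all genes, with 1 at an unadjusted p under 0.05 (8.22% of all genes), Vim at -0.67 (SE 0.21, edgeR adjusted p = 0.601). The difference between the sexes gave 0 of 10 in D1 and 0 of 10 in D2 by edgeR, with 0 at an unadjusted p under 0.05 in each, beside 2.08% of all genes in D1 and 3.02% in D2, and 0% of all genes called.

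Between populations, D2 against D1 nuclei under EGFP, 0 of the 10 genes were called by edgeR, DESeq2 or limma voom, beside 0.121% of 43902 genes, and 3 had an unadjusted p under 0.05, beside 10.5% of all genes. The log2 fold changes ran from -0.13 in Aldh1l1 to 0.48 in Vim (SE 0.14, edgeR adjusted p = 0.229), and Vim was at 0.30 without D2 male EGFP 4. Of the 10 spiny neuron genes, 5 were called in the same comparison. These comparisons share the EGFP libraries, so the D2 value of a gene against D1 and its RXRa value in D2 are not independent.

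Other lists were called in both directions in D2, where 14.9% of all genes were called higher and 7.14% lower. Counts near these shares are no result about a list. Of the 24 other homeostatic genes 4 were called, 3 higher, among them Mfge8 (0.40, SE 0.11, edgeR adjusted p = 0.0139), and 1 lower, Cldn10 (-0.17, SE 0.05, 0.0229). Mfge8 thus fell in bulk and rose in D2. Of the reactive lists, Steap4 fell (-0.22), 3 of 11 A1 genes fell, among them Iigp1 (-0.29) and H2-D1 (-0.68), and 2 of 12 A2 genes fell, Cd109 (-0.19) and B3gnt5 (-0.30). Of the 15 genes of the gp130 route 3 rose, among them Ptpn11 (0.29) and Jak2 (0.37), and of the intermediate filament list Plec rose (0.33). Spiny neuron genes rose, 7 of 10, among them Drd2 (0.75) and Drd1 (0.89). Markers of other cells fell in part: 3 of 7 endothelial genes (Abcb1a -0.24, Slco1a4 -0.22), 2 of 6 mural genes (Kcnj8 -0.40, Dcn -0.20), 1 of 5 ependymal genes (Tmem212 -0.17), and 2 of 13 microglial genes (Csf1r -0.17, Ctss -0.21) against 1 that rose. T cell genes gave 0 of 8 calls by edgeR, DESeq2 and limma voom, with 2 at an unadjusted p under 0.05 by edgeR, beside 37.1% of all genes. With the silent-gene level as a covariate none of the genes of these lists was called, nor any other gene tested, and Jak2 and Plec turned to -0.039 and -0.022. Further calls in these lists, named after their values were seen, were Glul (0.56), Slc4a4 (0.31), Il6st (0.21) and P2ry12 (0.23) higher and Gbp2 (-0.25) and Tek (-0.15) lower.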

How the data were processed

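Bulk RNA was poly(A)-selected and RNA of sorted nuclei was ribosomal-RNA-depleted and made into stranded total RNA libraries, per the labels' protocols. The deposited tables hold raw counts as whole numbers. The submitters' processing notes name FastQC, Trimmomatic, HISAT2, Picard, featureCounts, Subread and the build GRCm38. Annotation release, use of strand and treatment of intron reads are not given in the sources used here, so antisense and overlapping genes may share reads. Poly(A) and total RNA libraries differ, so folds were taken only within a table.

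Counts were tested with edgeR 4.0.16 in R 4.3.3 (quasi-likelihood, filterByExpr by group, TMM). Bulk was fitted with 2 groups and the 35 assigned sorted libraries as 8 groups, over 11 contrasts, with the 2 vector entries left out. A library whose title and vector disagree in the labels was left out of every comparison. Alternatives used DESeq2 1.42.0, limma 3.58.1 and sva 3.50.0. Chi-square divided by its degrees of freedom was 1.79 to 63.6 over 72 pairs of replicates, more than counting error alone would give. Each library counted once in the fits. These values do not show that libraries came from separate animals. On simulated counts of 18506 genes in the bulk design, 50.7% of genes changed 1.5-fold, 70.1% changed 2-fold and 97.0% changed 4-fold were recovered. The simulation drew each gene on its own, without the variation that genes of a library share in the real data. These percentages therefore need not hold for the real bulk comparison.

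Members and lists were chosen with earlier results of these data known. All 10 members are named. Of the other lists, genes called in bulk (at most 4 per list by smallest p) and in D2 (at most 2) are named, with the 3 genes most like Aqp4 and Gfap. One gene that this rule names is not reported here. Symbols, lengths and positions come from GENCODE M21, which held 55394 of the 55487 entries. Dixon's test flagged single libraries, and each library was left out in turn.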

Additional observations from a re-analysis of the deposited data

Results flagged for a closer look

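Single libraries far from the others of their group were found in 9 of 100 gene and group sets tested by Dixon's ratio at the 95% level, where chance flags about 1 in 20. Among bulk libraries Aqp4 in RXRa 1 stood apart at 212.2 CPM, with the nearest other RXRa library at 302.2 CPM. D2 male EGFP 4 was the distant library for 5 genes, at 21.7 CPM for Aqp4, 183.1 CPM for Slc1a2, 86.5 CPM for Slc1a3, 25.1 CPM for Gja1 and 12.7 CPM for Vim, in each case above the other 4 libraries. Gja1 in D2 male RXRa 3 was at 23.4 CPM, with the next library at 14.6 CPM. Slc1a2 in D1 female EGFP 2 was at 135.2 CPM and Gja1 in D1 male EGFP 5 at 14.6 CPM, both the highest of their groups.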

How the results depend on the processing

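In bulk 1 of the 10 genes was called. That count was 0 with limma voom, 0 with the replicate number as a block and 7 with 1 surrogate variable, and 0 to 1 over the fits without 1 library. For the surrogate variable fit the share of all genes called is not given here. In D2 over both sexes 5 were called. The count was 2 with RLE size factors, 2 with no filter on low counts, 2 with the replicate block, 0 with silent-gene level as a covariate and 0 with only the D2 groups, and it ran from 0 to 5 over the fits without 1 library. Over all genes, the 687 calls in bulk dropped to 9 once GFP 4 was left out, to 243 for GFP 2 and 402 for GFP 3, and on the other side to 175 for RXRa 4, 292 for RXRa 3 and 333 for RXRa 2. In D2, 9683 of all genes were called, but 0 without D2 female RXRa 4 and 0 with the silent-gene covariate. In D2 females alone 0 of the 10 genes were called, and 0 to 1 without 1 library. Without D2 female RXRa 3 that 1 gene was Osmr, and 6699 of all genes were called there against 0. The main fits did not use the replicate numbers as pairs. Correlations of same-numbered libraries ran from -0.563 to 0.643, and this spread does not settle whether the numbers pair libraries. With the block no gene of all 18579 was called in bulk, and 3303 had an unadjusted p under 0.05.

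The median ratio to silent genes, 1.17 over libraries, was 1.95 per kb of exon. Fold changes near 0 turned sign. Slc1a3 in bulk was 0.025 with library totals only, 0.0087 with 1 surrogate variable and -0.10 to 0.054 without 1 library. In D1, Aldh1l1 was 0.00027 with RLE size factors, 0.00079 with DESeq2, 0.00010 at a mean CPM of at least 1, 0.020 with the silent-gene covariate and -0.029 to 0.0050 without 1 library. Slc1a3 was 0.0019 with the block and 0.019 with the covariate, and Serpina3n was -0.040 with library totals and -0.00098 to 0.055 without 1 library. Osmr was 0.0042 with RLE, 0.0035 with DESeq2, 0.0026 at a mean CPM of at least 1, 0.048 with the covariate and -0.038 to 0.010 without 1 library. In D2, Slc1a2 was -0.061 with library totals and -0.0047 to 0.23 without 1 library, Gja1 was -0.24 to 0.016 without 1 library, and with the covariate Cd44 was 0.013, Jak2 -0.039 and Plec -0.022. Between D2 and D1 under EGFP, Slc1a2 was -0.074 to 0.051 and Serpina3n -0.049 to 0.16 without 1 library. The cause of these changes was not tested. Depth limited the sorted values of Gfap and Vim most, with 47 to 185 and 33 to 160 counts per library.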

Other observations

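The sorted library that entered no comparison, a D2 female one, had a median ratio of the 10 genes to the silent-gene level of 1.21. Its lowest ratio was 0.719 in Gfap and its highest 1.87 in Slc1a2. In bulk the reactive share of the summed level of the 10 genes was 39.9%, 37.9%, 25.1% and 29.2% in GFP 1 to 4 and 37.6%, 42.7%, 39.2% and 47.0% in RXRa 1 to 4. With library totals in place of TMM the silent-gene level differed by -0.19 in D1 and -0.38 in D2 on the log2 scale, RXRa against EGFP.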
